A study of Mus musculus with 24 samples.

Results

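Plet1, Car4, Spp1 and Kif1a are 4 of the 25746 genes counted in each library of a culture experiment on mouse bone marrow-derived eosinophils. They were taken by symbol, chosen by the size of their log2 change with GM-CSF in wild-type cells, or by the loss of that change in cells with a knockout of Csf2ra, which encodes the specific subunit of the receptor for GM-CSF. Marrow of C57BL/6 mice was grown with SCF and FLT3L (100 ng/ml each) and then with IL-5 at 10 ng/ml from day 4. On day 13 the eosinophils were left untreated or given cytokine overnight, and polyadenylated RNA was sequenced as stranded libraries. The 24 libraries form 8 groups of 3. These are Csf2ra-/- cells with GM-CSF (20 ng/ml) and untreated, cells labelled Irf5-/- with GM-CSF and untreated, and wild-type (WT) cells with GM-CSF and IL-10 together, GM-CSF alone, IL-10 alone and untreated. All 8 groups had IL-5, the dose of IL-10 is not given in the labels, and the labels do not say whether the 3 libraries of a group came from separate animals or cultures. P-values therefore measure the spread between these libraries, which may be technical.

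GM-CSF binds a receptor made of Csf2ra, which contacts the cytokine, and the common beta chain, which it shares with IL-5 and IL-3, and signals through JAK2 and STAT5. It prolongs eosinophil survival, and in the lung it is required for alveolar macrophages to form. The 4 genes have unrelated products. Plet1 is a surface protein known from epithelial progenitors and from dendritic cells. Car4 is a carbonic anhydrase held on the outer membrane by a GPI anchor, and marks alveolar macrophages and lung capillaries. Spp1 encodes osteopontin, a secreted phosphoprotein that binds integrins and CD44. Kif1a is a kinesin motor that carries synaptic vesicle precursors along axons and is known mainly from neurons.

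The genes lie on 4 chromosomes (GRCm38, GENCODE annotation). Plet1 (ENSMUSG00000032068) spans chr9:50494525-50505482 on the plus strand, where the exons of the antisense gene Plet1os overlap it. Reads of both would be told apart only by strand-aware counting, and the strand setting is not known here. Car4 (ENSMUSG00000000805) spans chr11:84957786-84966044 on the plus strand. Spp1 (ENSMUSG00000029304) spans chr5:104435118-104441050 on the plus strand, where a same-strand predicted gene, Gm42793, overlaps its exons and was counted separately with 2781 reads over all 24 libraries. Reads that fit both could have been split or dropped, so the Spp1 level carries that uncertainty. Kif1a (ENSMUSG00000014602) spans chr1:93015464-93101951 on the minus strand.

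The proximal promoters of the 3 genes with the most reads are shown because these genes were high in the same GM-CSF groups. Each window is the 250 bases before the start of the RefSeq transcript in GRCm38.p6, on the plus strand, and capitals mark motif matches. The Plet1 window is chr9:50494275-50494524, the Car4 window is chr11:84957504-84957753 and the Spp1 window is chr5:104434861-104435110.
Plet1: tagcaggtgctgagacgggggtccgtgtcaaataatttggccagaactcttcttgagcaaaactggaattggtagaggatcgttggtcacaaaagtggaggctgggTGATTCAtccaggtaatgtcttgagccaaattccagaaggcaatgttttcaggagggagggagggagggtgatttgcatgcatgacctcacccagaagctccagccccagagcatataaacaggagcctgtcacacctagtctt
Car4: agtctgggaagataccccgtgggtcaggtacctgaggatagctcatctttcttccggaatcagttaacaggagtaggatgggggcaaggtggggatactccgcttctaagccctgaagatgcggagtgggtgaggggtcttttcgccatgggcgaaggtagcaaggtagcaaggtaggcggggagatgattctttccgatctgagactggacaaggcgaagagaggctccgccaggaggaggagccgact
Spp1: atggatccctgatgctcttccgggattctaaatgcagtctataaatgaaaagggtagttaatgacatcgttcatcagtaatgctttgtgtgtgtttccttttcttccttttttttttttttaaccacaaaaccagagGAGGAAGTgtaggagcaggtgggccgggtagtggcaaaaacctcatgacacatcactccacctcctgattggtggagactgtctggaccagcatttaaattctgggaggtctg
A set of 3 motif strings were searched on both strands: TTCNNNGAA, the core bound by STAT factors, GAGGAAGT, a PU.1 (Spi1) site, and TGANTCA. The last, called the AP-1 string here, is a loosened form that allows any middle base, where the AP-1 consensus has C or G. The STAT string was found in 0 of the 6 RefSeq windows of the 4 genes, against 7.02% of the 32851 mouse promoter windows of the same length. The PU.1 string occurred once, beginning 113 bases before the Spp1 start, and it occurs in 2.44% of all windows. The AP-1 string occurred once, beginning 144 bases before the Plet1 start, and it occurs in 6.75% of all windows. That match, TGATTCA, has T as its middle base, outside the AP-1 consensus. These matches describe letters in these windows only and say nothing of binding.

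Library totals ranged over 6222979 to 18709153 counted reads. Levels are given as CPM, reads of a gene scaled to the size of its library, with TMM factors between libraries, and 11885 genes, the 4 included, passed the filter on low counts. The eosinophil granule genes Prg2 and Epx were high in all 24 libraries (39100 to 65200 and 13500 to 20800 CPM). Csf2ra ran at 28.5 to 39.8 CPM in the 6 Csf2ra-/- libraries, against 41.7 to 83.8 CPM in the other 18, so some transcript was still counted under the knockout label. Counts over a whole gene do not show whether its deleted part is missing. Irf5 went against its label: the 6 libraries labelled Irf5-/- had 1390 to 2000 CPM of it, against 28.3 to 94.2 CPM in the other 18. The direction of every comparison of these 6 libraries with WT cells rests on that label, whereas the GM-CSF effect within them compares libraries of the same label. Below, Irf5-/- gives the label only. The first Csf2ra-/- untreated library stood apart, with a summed eosinophil marker level of 112000 CPM.

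**Figure D1:**
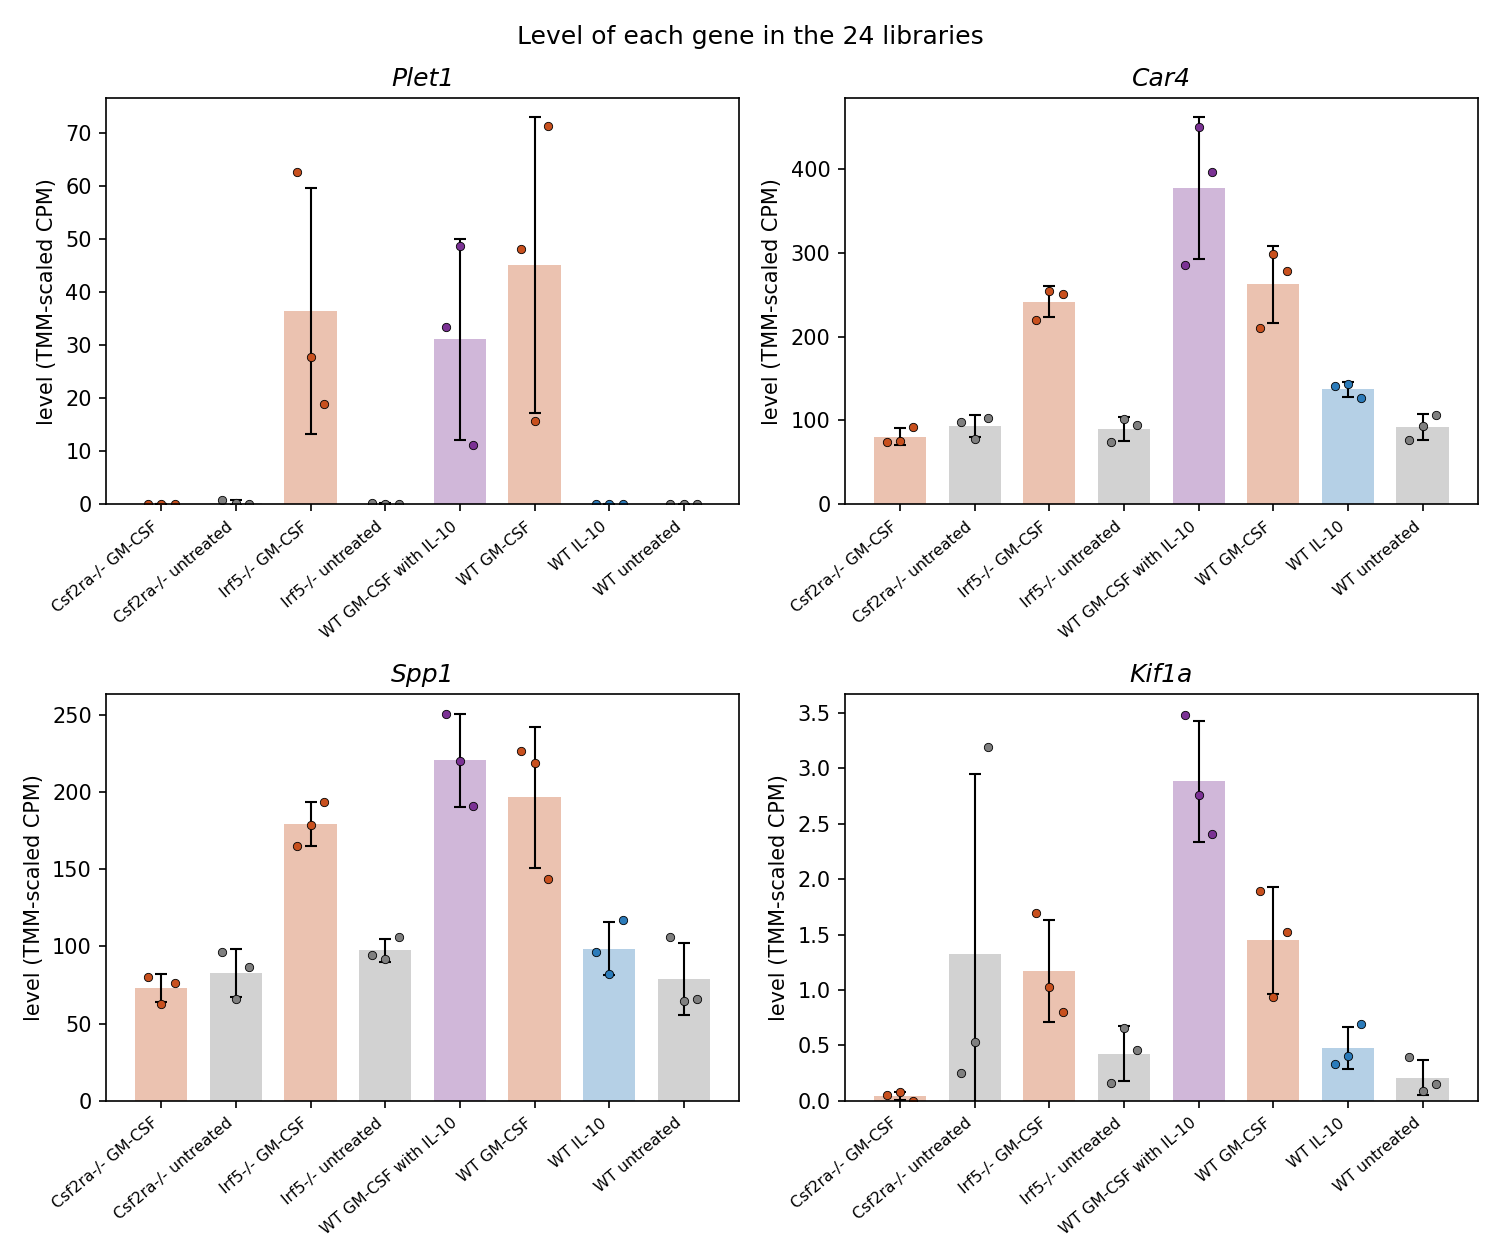
Level of Plet1, Car4, Spp1 and Kif1a (TMM-scaled CPM, linear axes from 0) in each of the 24 libraries by group; points are libraries, bars are group means and error bars are SD (n = 3). Plet1 is at or near 0 in every group without GM-CSF and in Csf2ra-/- cells with GM-CSF, while Car4 and Spp1 stand on a basal level in all groups.

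In WT cells GM-CSF alone moved the 4 genes in the same direction on very different scales. These values chose the genes, so they are given as a description, without a test. Plet1 stood at 48.2, 15.8 and 71.2 CPM in the WT GM-CSF libraries, against 0, 0 and 0.0747 CPM in the WT untreated ones. That is 2116 reads against 1 read over the 3 libraries of each group, a scaled ratio of 1720 with a 95% exact counting interval of 308 to 68000. Leaving out 1 library at a time gave ratios of 1070 (without untreated replicate 1) to 2350 (without GM-CSF replicate 2), with none to be had without untreated replicate 3, which holds the 1 read. Such intervals cover counting error only. Plet1 was thus a gene with almost no reads that became readily measurable, yet its 3 GM-CSF libraries differed among themselves, relative to their mean, by more than those of Car4 or Spp1.

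Car4 stood at 210, 298 and 278 CPM in WT GM-CSF libraries, against 76.3, 93.5 and 107 CPM in untreated ones. Its fitted log2 fold change was 1.51 ± 0.17 (SE), or 2.84-fold. Spp1 stood at 227, 219 and 144 CPM with GM-CSF, against 106, 64.8 and 65.8 CPM untreated, a log2 fold change of 1.31 ± 0.19. Both genes were therefore abundant before GM-CSF was added, and in neither did the groups overlap. Kif1a stood at 1.89, 0.932 and 1.52 CPM with GM-CSF, against 0.392, 0.0861 and 0.149 CPM untreated. These Kif1a levels rest on 71 reads against 9, a scaled ratio of 6.41 (95% exact counting interval 3.2 to 14.6). All 4 genes were above in every GM-CSF library, as were 6.9% of the tested genes, and the count was fixed by how the genes were chosen.

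Levels of the 4 genes can be compared with each other per kilobase of exon. In WT GM-CSF libraries the mean levels were 133 CPM per kb for Car4, 119 for Spp1, 23.1 for Plet1 and 0.155 for Kif1a. Kif1a is thus a trace transcript beside the others even where it is high. In bulk RNA, a change in the number of cells of one type cannot be told apart from a change in the RNA per cell.

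In Csf2ra-/- cells GM-CSF raised none of the 4, which is again how they were chosen and is given without a test. Plet1 had 0 reads in the 3 Csf2ra-/- GM-CSF libraries, against 7, 3 and 0 reads in the Csf2ra-/- untreated ones. With a floor of 3 reads over the group this is at least 3.6-fold lower with GM-CSF. Of those untreated reads 7 lie in replicate 1, the library that stood apart, and without it the 3 reads left are at the floor, so that no fold can be given. Car4 stood at 74.2, 75.8 and 92.4 CPM with GM-CSF, against 98.1, 78.5 and 103 CPM untreated. The Car4 log2 fold change was -0.21 ± 0.17, with overlapping groups. Spp1 stood at 80.1, 63 and 76 CPM with GM-CSF, against 96.3, 65.7 and 86.5 CPM untreated, a log2 fold change of -0.18 ± 0.19. Both genes thus sat at or slightly below their untreated level.

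Set against WT, the GM-CSF effect in Csf2ra-/- cells was lower by 1.71 ± 0.24 on the log2 scale for Car4 and by 1.49 ± 0.27 for Spp1. With GM-CSF present, Plet1 had 0 reads in Csf2ra-/- libraries against 2116 in WT libraries, at least 645-fold lower with the same floor. Car4 was at 0.308 of its WT level in that comparison and Spp1 at 0.371. All 4 genes were below in every Csf2ra-/- library there, as were 10.1% of tested genes, a count the choice of genes fixed. Without cytokine the log2 difference between Csf2ra-/- and WT cells was 0.01 ± 0.17 for Car4 and 0.06 ± 0.19 for Spp1, so the basal expression of both was at the WT level within its error. Across all tested genes, 10.8% passed the adjusted threshold between untreated Csf2ra-/- and WT cells and 3.79% did with GM-CSF.

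Kif1a was lower with GM-CSF in Csf2ra-/- cells, and its untreated libraries were far apart. It had 1, 1 and 0 reads in the Csf2ra-/- GM-CSF libraries, against 2, 9 and 54 reads in the untreated ones. The third untreated library stood at 3.19 CPM, above 1.69 CPM, the highest Irf5-/- GM-CSF library, and was exceeded among all 24 libraries by 1 WT library with GM-CSF and IL-10. The scaled ratio of GM-CSF to untreated was 0.0285 (95% exact counting interval 0.00338 to 0.107), and 0.101 without that library. The lowest untreated library had only 2 reads, against 1 read in the highest GM-CSF library. Between untreated Csf2ra-/- and WT cells the log2 difference was 2.65 ± 0.73, and 0.92 without the library at 3.19 CPM. What sets that library apart was not tested.

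**Figure D2:**
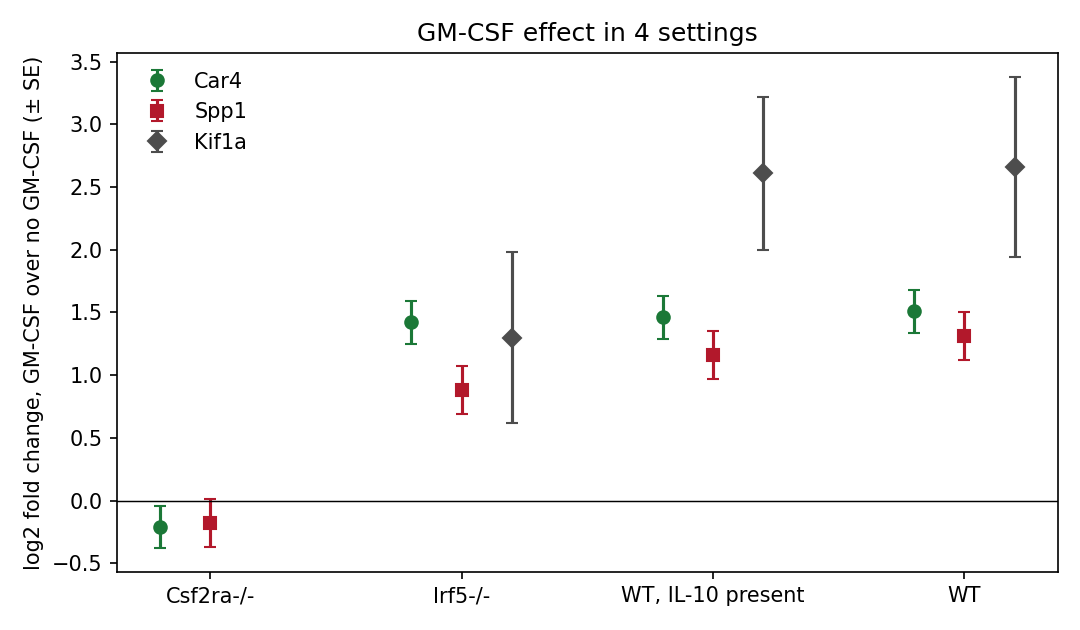
Fitted log2 fold change of GM-CSF over no GM-CSF (vertical axis, ± SE of the edgeR model) for Car4, Spp1 and Kif1a in Csf2ra-/- cells, cells labelled Irf5-/-, WT cells with IL-10 present and WT cells. Plet1, and Kif1a in Csf2ra-/- cells, are left out because a group had at most 3 reads; the Car4 effect lies at 1.42 to 1.51 in the 3 settings other than Csf2ra-/-, where it is -0.21.

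The GM-CSF response was also tested in other WT libraries, those that received IL-10 with or without GM-CSF. All 4 genes rose there by edgeR's quasi-likelihood test with Benjamini-Hochberg adjustment over 11885 genes, where 0.724% of tested genes were called higher. The 4 were above in every GM-CSF library, as were 9.24% of tested genes. Plet1 stood at 33.5, 48.6 and 11.1 CPM in WT libraries with GM-CSF and IL-10, against 0.0669, 0 and 0 CPM in WT libraries with IL-10 alone. It had 1333 reads against 1, a scaled ratio of 1190 (95% exact counting interval 214 to 47200; edgeR adjusted p = 0.000298), a call lost with limma-voom (adjusted p = 0.156). The same on-off pattern as without IL-10 was therefore seen in a separate set of 6 libraries. The genes were chosen with earlier results of these data known, so these libraries may not be independent of the choice. Plet1 and Kif1a passed the filter on low counts mainly through GM-CSF libraries, these included. Without that filter both kept their calls with IL-10 present (edgeR adjusted p = 0.00188 and 0.0403).

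Car4 stood at 285, 450 and 396 CPM with GM-CSF and IL-10, against 141, 143 and 127 CPM with IL-10 alone. It was 2.75-fold higher, a log2 fold change of 1.46 ± 0.17 (edgeR adjusted p = 1.99e-05). Spp1 stood at 251, 220 and 191 CPM with GM-CSF and IL-10, against 96.6, 82.4 and 117 CPM with IL-10 alone. These Spp1 groups lay far apart, with a log2 fold change of 1.16 ± 0.19 (edgeR adjusted p = 0.00171). Kif1a stood at 3.48, 2.76 and 2.41 CPM with GM-CSF and IL-10, against 0.334, 0.401 and 0.688 CPM with IL-10 alone. Its log2 fold change was 2.61 ± 0.61 (edgeR adjusted p = 0.0426), on 131 reads against 19. The Kif1a call was lost when any 1 of the 6 libraries was left out (edgeR adjusted p = 0.0661 to 0.33), while the direction held in all 6.

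In the libraries labelled Irf5-/-, GM-CSF raised 3 of the 4 genes by the same edgeR test, where 0.353% of tested genes were called higher. DESeq2 also called 3, limma-voom called 1 and an edgeR fit of only these 6 libraries called 2. All 4 were above in every GM-CSF library, as were 8.72% of tested genes. Plet1 stood at 62.6, 27.8 and 18.9 CPM with GM-CSF, against 0.32, 0 and 0 CPM untreated. It had 1392 reads against 2, a scaled ratio of 633 (95% exact counting interval 175 to 5230; edgeR adjusted p = 0.000881), a call lost with limma-voom (adjusted p = 0.379) and in the fit of only these libraries (edgeR adjusted p = 0.147). Plet1 was thus again off without GM-CSF and on with it.

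Car4 stood at 220, 254 and 251 CPM with GM-CSF, against 74.1, 102 and 94.5 CPM untreated, in the libraries labelled Irf5-/-. Its log2 fold change was 1.42 ± 0.17 (edgeR adjusted p = 7.33e-05). Spp1 stood at 165, 179 and 194 CPM with GM-CSF, against 94.2, 92 and 106 CPM untreated. Spp1 rose by 0.88 ± 0.19 (edgeR adjusted p = 0.0436), a call that did not survive leaving out any 1 of the 6 libraries (adjusted p = 0.115 to 0.298 by edgeR). Kif1a stood at 1.69, 1.03 and 0.799 CPM with GM-CSF, against 0.16, 0.654 and 0.457 CPM untreated. Its log2 fold change of 1.3 ± 0.68 did not pass (edgeR adjusted p = 0.911). It rests on 45 reads against 17, a scaled ratio of 2.41 with a 95% exact counting interval of 1.35 to 4.49. Whether the Kif1a effect differed from that in WT cells was not tested.

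Set directly against WT cells, the libraries labelled Irf5-/- gave no call for any of the 4 genes, by edgeR, DESeq2 or limma-voom, and none at an unadjusted p under 0.05. The WT libraries of these comparisons are among those used to choose the genes. With GM-CSF the log2 difference was -0.3 ± 0.54 for Plet1, -0.12 ± 0.16 for Car4, -0.13 ± 0.19 for Spp1 and -0.3 ± 0.57 for Kif1a (edgeR adjusted p = 1 for each). Untreated, it was -0.03 ± 0.17 for Car4, 0.3 ± 0.19 for Spp1 and 1.06 ± 0.87 for Kif1a (edgeR adjusted p = 0.953, 0.462 and 0.562), and Plet1 had 2 reads against 1. In each of these 2 comparisons 0.0337% of all tested genes were called. The errors of Plet1 and Kif1a are wide enough to leave room for sizeable differences in either direction.

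IL-10, an anti-inflammatory cytokine that signals mainly through STAT3, gave no call for the 4 genes either without or with GM-CSF. By edgeR 0 of 4 passed in each comparison, with Car4 alone at an unadjusted p under 0.05, and DESeq2 and limma-voom also called 0 of 4. Of all tested genes 0.0505% were called in each. These comparisons share the WT untreated or WT GM-CSF libraries with the choice of the genes. Car4 with IL-10 alone was 1.49-fold its untreated level, with all 3 IL-10 libraries (127 to 143 CPM) above all 3 untreated ones (76.3 to 107 CPM), as were 7.34% of tested genes. The Car4 log2 difference was 0.57 ± 0.17 (edgeR adjusted p = 0.509). In a fit of only these 6 libraries the same difference passed (edgeR adjusted p = 0.045).

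On top of GM-CSF, the Car4 log2 difference made by IL-10 was 0.53 ± 0.16 (edgeR adjusted p = 0.765), with overlapping groups. Kif1a was above in all 3 libraries with both cytokines (2.41 to 3.48 CPM) relative to GM-CSF alone (0.932 to 1.89 CPM), as were 3.47% of tested genes. Its log2 difference was 0.99 ± 0.52 (edgeR adjusted p = 1). For Spp1 the difference was 0.17 ± 0.19 and for Plet1 it was -0.54 ± 0.54 (edgeR adjusted p = 1 for both). IL-10 alone left Plet1 off, with 1 read against 1 read untreated.

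Levels with both cytokines lay near the sum of the single effects on the log2 scale, given here as a description because the GM-CSF effect chose the genes. Relative to untreated WT cells, Car4 was 4.09-fold higher with GM-CSF and IL-10, a log2 fold change of 2.03 ± 0.17 beside a sum of 2.08. Spp1 had a log2 fold change of 1.48 ± 0.19 beside a sum of 1.63. For Kif1a the values were 3.65 ± 0.69 and 3.7.

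**Figure D3:**
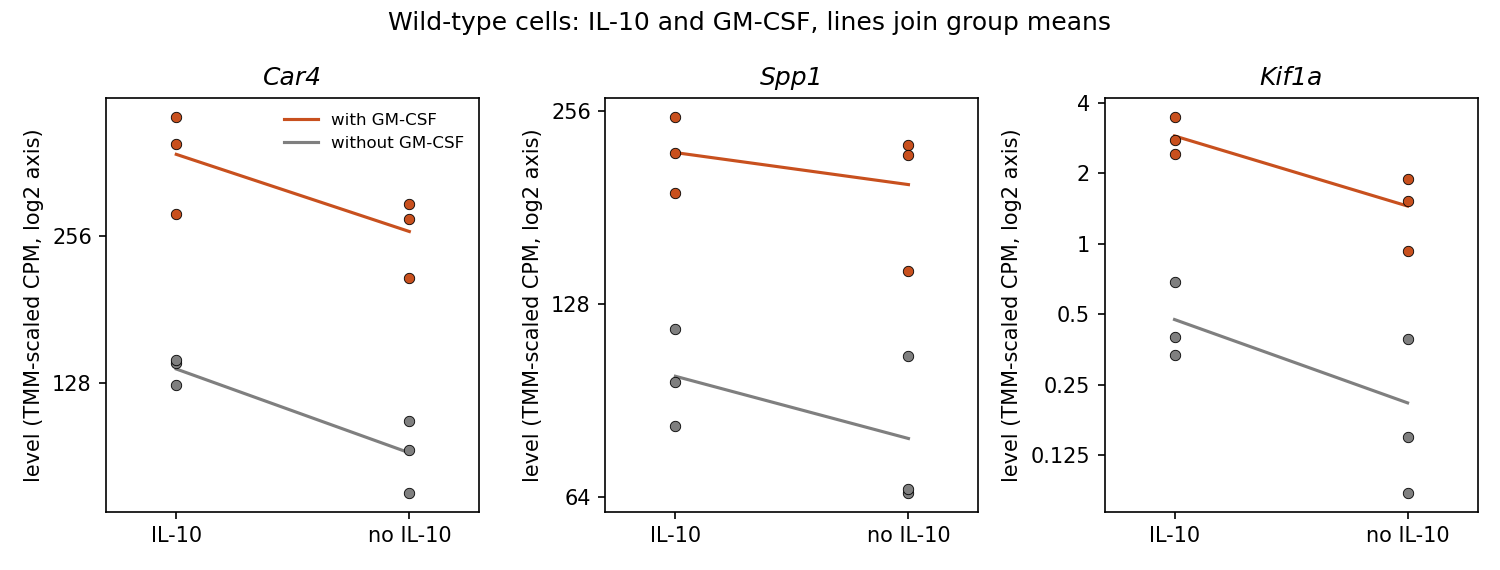
Levels of Car4, Spp1 and Kif1a (TMM-scaled CPM, log2 axes) in the 12 WT libraries, with IL-10 on the left and without it on the right of each panel; points are libraries, lines join group means, orange is with GM-CSF and grey without. The GM-CSF lines lie above the others in all 3 panels, and the Car4 lines for IL-10 run nearly parallel (0.53 with GM-CSF and 0.57 without, log2).

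Ordered by group mean, the 4 genes shared a block of 3 high groups, with 1 exception. For Car4 the order was WT with GM-CSF and IL-10 (377 ± 84.2 CPM, SD, n = 3), WT with GM-CSF (262 ± 46.1) and Irf5-/- with GM-CSF (241 ± 18.8), each overlapping the next. Below a gap came WT with IL-10 alone (137 ± 8.94 CPM), and below a further gap the other 4 groups, at means of 80.8 to 93.3 CPM with overlapping ranges. Among the 4 genes, only Car4 had libraries with IL-10 alone that did not overlap the groups below. The Car4 difference between IL-10 alone and WT untreated cells was not called (edgeR adjusted p = 0.509). In that comparison 7.34% of tested genes were above in every IL-10 library. For Spp1 the same 3 groups led, at 221 ± 29.5, 197 ± 45.7 and 180 ± 14.6 CPM (SD, n = 3), overlapping in turn. The other 5 Spp1 groups, at means of 73 to 98.5 CPM, overlapped their neighbours. For Plet1 the leading order was WT with GM-CSF (45.1 ± 27.8 CPM), Irf5-/- with GM-CSF (36.5 ± 23.1) and WT with both cytokines (31.1 ± 18.9), all overlapping. Kif1a was the exception: WT cells with both cytokines led at 2.88 ± 0.544 CPM, above every library of WT or Irf5-/- cells with GM-CSF. Csf2ra-/- untreated cells, at 0.247 to 3.19 CPM, overlapped all 3 of these groups through the library at 3.19 CPM.

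Among the 4 genes, Plet1 varied most between libraries in each of the 3 GM-CSF groups other than Csf2ra-/-, with coefficients of variation of 60.9% to 63.3%. Markers of dendritic cells, which the marrow culture could hold, varied with it, a pattern picked out after the values were seen. Their summed level (12 genes) was 382, 243 and 510 CPM in WT GM-CSF libraries, 401, 533 and 233 CPM with GM-CSF and IL-10, and 523, 275 and 229 CPM in Irf5-/- GM-CSF libraries. This sum was mostly H2-Ab1, H2-Aa, Itgax and H2-Eb1, with medians of 101, 57.9, 45.7 and 39.1 CPM over the 24 libraries. Each other marker had a median of at most 4.43 CPM. In all 3 of these groups the order of the libraries by this sum was their order by Plet1, while it was the order by Car4 or Spp1 in 0 of 3 and by Kif1a in 1 of 3. Without GM-CSF the sum was 294 to 312 CPM in WT untreated and 263 to 308 CPM in WT IL-10 libraries, where Plet1 was at 0 to 0.0747 CPM. The second WT GM-CSF library thus had 15.8 CPM of Plet1 with a marker sum below that of every WT untreated library. In Irf5-/- untreated libraries, with Plet1 at 0 to 0.32 CPM, the sum was 132 to 234 CPM. In Csf2ra-/- cells the sum was lower than in WT cells, at 90.7 to 168 CPM with GM-CSF and 88.8 to 181 CPM untreated.

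Among defining dendritic cell markers Xcr1 was at 0 in all 24 libraries. The transcription factor Zbtb46, at most 2.41 CPM, and Cd209a, a lectin of monocyte-derived dendritic cells, both followed the Plet1 library order in all 3 groups. Single-gene orders are given only for these 2 and for 1 macrophage marker below, not for the other listed markers. The share of all tested genes that follow the Plet1 order was not counted. Cd209a stood at 3.6, 0.767 and 8.61 CPM in WT GM-CSF libraries, against 0.784, 1.12 and 1.05 CPM in WT untreated ones. With IL-10 alone, where Plet1 was at 0 to 0.0669 CPM, Cd209a stood at 4.41, 4.48 and 1.81 CPM. Of the 11 dendritic cell markers tested, 1 was called higher with GM-CSF in WT cells, 2 with IL-10 present, 2 in the libraries labelled Irf5-/- and 0 in Csf2ra-/- cells by edgeR, beside 0.555% (in either direction), 0.724%, 0.353% and 0% of all tested genes. At an unadjusted edgeR p under 0.05 there were 4, 4, 8 and 0, all higher, and DESeq2 called 1, 2, 3 and 0 and limma-voom 1, 2, 1 and 0. The list's median log2 fold changes in these 4 comparisons were 0.53, 0.39, 1.07 and -0.08, beside medians of all tested genes between -0.01 and 0.01. Itgax was the 1 marker called in WT cells and 1 of the 2 in each other setting with calls. It is also in the alveolar macrophage list below. Summed macrophage and monocyte markers ran at 2000 to 2650 CPM over all groups, mostly Ly6c2 and Adgre1, and did not follow the Plet1 order in any of the 3 groups. The macrophage mannose receptor Mrc1, 1 of the 14 listed, did so in all 3, at 6.17, 1.86 and 17.2 CPM in WT GM-CSF libraries, 21.7, 62.6 and 8.43 CPM with IL-10 added, and 12.7, 5.16 and 2.83 CPM in Irf5-/- GM-CSF libraries. Where Plet1 was off, Mrc1 stood at 15.7, 22.6 and 23.1 CPM in WT untreated and 91.9, 71.7 and 36.3 CPM in WT IL-10 libraries. Its log2 change with GM-CSF was -1.31 ± 0.69 in WT cells, -1.12 ± 0.63 with IL-10 present and 0.33 ± 0.77 in libraries labelled Irf5-/-. The macrophage and monocyte list had medians of -0.21, -0.32 and 0.33 in these 3 settings. The part of dendritic cells or macrophages in the Plet1 result was not tested.

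**Figure D4:**
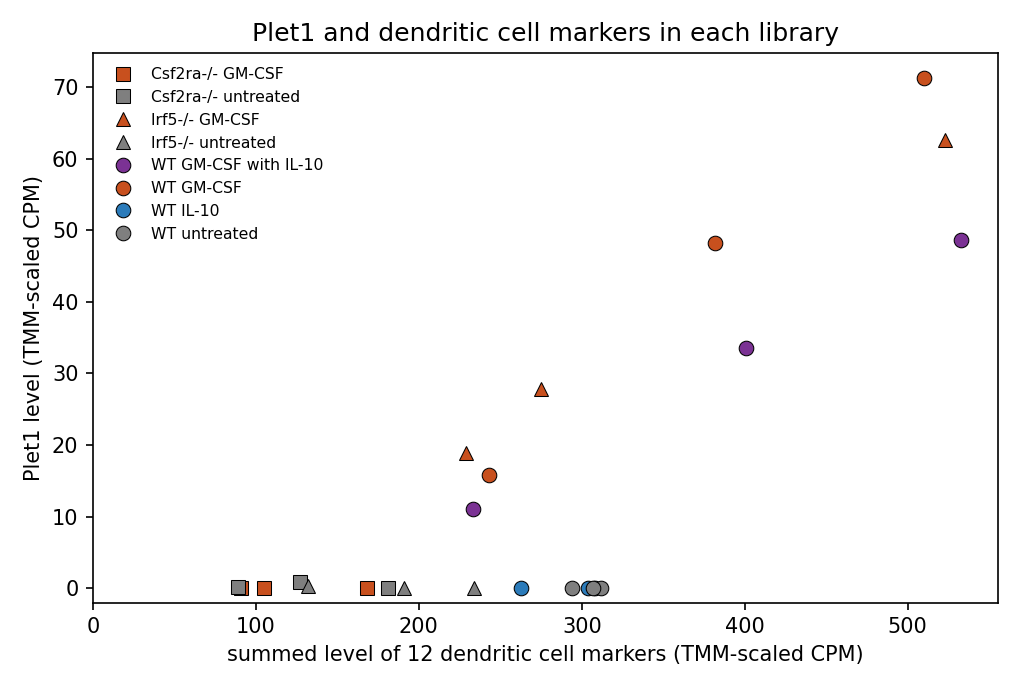
Plet1 level (vertical axis, TMM-scaled CPM) against the summed level of 12 dendritic cell markers (horizontal axis, TMM-scaled CPM) in the 24 libraries; squares are Csf2ra-/-, triangles Irf5-/- and circles WT, with colour giving the treatment. The 9 GM-CSF libraries other than Csf2ra-/- lie at 11.1 to 71.2 CPM of Plet1, while all other libraries lie at or near 0, at marker sums up to 312 CPM. The sum is mostly H2-Ab1, H2-Aa, Itgax and H2-Eb1.

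The genes whose pattern over the 8 group means was most like each member were found by the root mean square difference of centred log2 levels, among 10586 genes (10587 for Kif1a). For Plet1 the nearest was Ccl17, a CCR4 ligand chemokine, at 0.52, followed at a distance by the lectin receptor Clec4n (1.29), the chemokines Ccl4 (1.43) and Ccl22 (1.57) and the adaptor Scimp (1.61). The spread of Plet1 itself over the groups was 2.82 on this scale, against 0.8 for Car4, 0.61 for Spp1 and 0.8 for Kif1a. For Car4 they were the neurturin receptor Gfra2 (0.19), the actin crosslinker Flnc (0.23), the giant muscle protein Neb (0.24), the lipoprotein receptor Tlr2 (0.24) and Spp1 (0.25). For Spp1 they were the PD-1 ligand Pdcd1lg2 (0.16), Asb2 (0.17), the cytosolic carbonic anhydrase Car2 (0.18), the cytokine Il13 (0.19) and Neb (0.19). For Kif1a they were Car4 (0.38), Spp1 (0.39), Pdcd1lg2 (0.42), the protease inhibitor Spint1 (0.43) and Flnc (0.43). Spp1 was thus among the 5 genes nearest Car4, while Car4 was not among those nearest Spp1, and Neb was near both. The 8 group means include those that chose the 4 genes, so nearness among them was partly fixed by that choice. The distances are not scaled to the spread of a gene, so those of Plet1 cannot be compared directly with the others. With group means of 0.0431 to 2.88 CPM, Kif1a has its spread and its distances compressed by the offset of 0.5 CPM added before the log.

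Few other members of the families of the 4 genes were called with GM-CSF. Of all tested genes, edgeR called 0.555% in WT cells (either direction). It called 0.724% higher with IL-10 present and 0.353% higher in libraries labelled Irf5-/-. Of the 32 other kinesins tested, 0 were called by edgeR, DESeq2 or limma-voom in any of the 4 GM-CSF comparisons, with 0 to 5 at an unadjusted edgeR p under 0.05. Kif1b, a close relative of Kif1a, stood at 48.3 ± 3.24 CPM with GM-CSF and 48 ± 6.89 CPM untreated in WT cells (SD, n = 3). Of 6 other carbonic anhydrases tested, Car2 rose with GM-CSF when IL-10 was present, at 5.04 ± 1.1 CPM against 2.04 ± 0.337 CPM with IL-10 alone (edgeR adjusted p = 0.017). Without IL-10 the Car2 log2 difference in WT cells was 1.15 ± 0.27 (edgeR adjusted p = 0.0565), and DESeq2 and limma-voom each called 1 of the 6 there. The 6 had median log2 fold changes of 0.23 in WT cells, 0.3 with IL-10 present, 0.26 in libraries labelled Irf5-/- and -0.01 in Csf2ra-/- cells. At an unadjusted edgeR p under 0.05 there were 1, 2, 3 and 0 of them, all higher but 1 in libraries labelled Irf5-/-. Of 11 osteopontin receptors and partners, the macrophage elastase Mmp12 was the 1 called, higher by 1.77 ± 0.27 with IL-10 present and by 1.54 ± 0.27 in libraries labelled Irf5-/- (edgeR adjusted p = 0.000735 and 0.00759). With GM-CSF alone in WT cells edgeR called 0 of these 11 and DESeq2 called 2, the number at an unadjusted edgeR p under 0.05. The osteopontin receptor Cd44 stood at 486 ± 58.7 CPM with GM-CSF and 495 ± 15.2 CPM untreated in WT cells. Of 14 GPI-anchored myeloid proteins, the lipopolysaccharide co-receptor Cd14 was called with IL-10 present, with a log2 fold change of 1.21 ± 0.25 (edgeR adjusted p = 0.0152).

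Of 24 genes listed around the GM-CSF receptor and JAK-STAT5 pathway, edgeR called 2 higher with GM-CSF in WT cells and 6 with IL-10 present. It called 2 higher in libraries labelled Irf5-/- and 0 in Csf2ra-/- cells, and called none lower. Of all tested genes, 0.724% were called higher with IL-10 present and 0.353% in libraries labelled Irf5-/-. In WT cells, where 0.555% of all tested genes were called in either direction, the listed genes called were the transcription factor Irf4 (log2 fold change 1.62 ± 0.34) and the cyclin Ccnd2 (0.7 ± 0.11). With IL-10 present Irf4 and Ccnd2 rose again, with the feedback inhibitors Socs1 (1.21 ± 0.23), Socs2 (0.66 ± 0.13) and Cish (0.59 ± 0.11) and the receptor chain Csf2ra (0.71 ± 0.14). The common beta chain Csf2rb stood at 3650 ± 623 CPM with GM-CSF and 3680 ± 341 CPM untreated in WT cells. The median log2 fold change of the list was 0.07 in WT cells, beside -0.01 for all tested genes. In Csf2ra-/- cells edgeR, DESeq2 and limma-voom called 0 of all tested genes with GM-CSF; 531 genes, and 0 of this list, had an unadjusted edgeR p under 0.05.

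Since Car4 is an alveolar macrophage gene, 22 further genes known to depend on GM-CSF in these cells were examined. With GM-CSF 1 rose in WT cells, 3 with IL-10 present, 1 in libraries labelled Irf5-/- and 0 in Csf2ra-/- cells (edgeR), beside 0.555% (in either direction), 0.724%, 0.353% and 0% of all tested genes. DESeq2 called 3, 4, 3 and 0 of the 22 and limma-voom 2, 3, 1 and 0. At an unadjusted edgeR p under 0.05 there were 12 in WT cells, 6 higher and 6 lower, and 5, 5 and 1 in the other comparisons. The integrin Itgax, also counted among the dendritic cell markers above, rose in all 3 settings other than Csf2ra-/- cells. Its log2 fold changes were 0.7 ± 0.11, 0.89 ± 0.12 and 0.62 ± 0.12. With IL-10 present the chitinase-like Chil3 (1.15 ± 0.25) and Car2 rose as well. The nuclear receptor Pparg, required for alveolar macrophage identity, stood at 2.44 ± 0.225 CPM with GM-CSF and 4.34 ± 1.03 CPM untreated in WT cells (edgeR adjusted p = 0.197). The list's median log2 fold change was -0.08 in WT cells with or without IL-10, so the rise of Car4 was not shared by most of these genes.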

How the data were processed

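Polyadenylated RNA of 24 libraries was measured. The deposited values are raw read counts per Ensembl gene, 1 file a library. Per the submitters' processing notes, STAR, featureCounts and GRCm38.p6 were used; their versions and the strand setting are not given in the labels or files. Per the labels, the libraries were made with a stranded mRNA kit.

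From the deposited counts, edgeR 4.0.16 (R 4.3.3) fitted 1 quasi-likelihood model of 8 group means with TMM scaling (factors 0.939 to 1.031) after a filter on low counts, which kept 11885 genes. P-values were Benjamini-Hochberg adjusted over all of them, with a threshold of 0.05. Each SE is the absolute log2 fold change over the root of the F statistic. The common biological coefficient of variation was 14.1%. Where a group had few reads, summed counts were compared with exact 95% intervals, and 3 counts stood for 0. Symbols came from GENCODE; 111 IDs without one hold 0.0385% of counts. Members and gene lists were chosen with earlier results of these data known. Besides the 4 members, the text names the 5 genes most like each (average of at least 1 CPM, offset 0.5 CPM), up to 5 called genes a list, and the targeted genes; the other list genes named were chosen after their values were seen. Every pair of libraries in a group differed by more than sampling noise. The fits were tested on simulated counts. Alternatives were DESeq2 1.42.0, limma-voom 3.58.1, DESeq2 size factors, other filters, a covariate of Y-linked gene levels, fits of only the groups compared, and each library left out. Promoter windows are from RefSeq, which gave 6 windows for the 4 genes, all matched by symbol.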

Additional observations from a re-analysis of the deposited data

How the results depend on the processing

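No paired analysis was possible because the labels give no numbers that join libraries across groups. Under DESeq2 size factors or a filter of at least 1 CPM in at least 3 libraries every result kept its direction and side of the threshold. Of the members' tested values, Spp1 in libraries labelled Irf5-/- lost its call without the low-count filter (0.88, adjusted p = 0.066) and with limma-voom (0.88, 0.0649). Plet1 lost its call with limma-voom, with IL-10 present (8.91, 0.156) and in libraries labelled Irf5-/- (8.68, 0.379), and in those labelled libraries fitted alone (9.08, 0.147). Kif1a with IL-10 present lost its call with the Y-linked covariate (2.58, 0.0579), and under the same covariate the Spp1 difference between Irf5-/- and WT cells with GM-CSF reversed to 0.01. Car4 with IL-10 alone passed when only its 6 libraries were fitted (0.57, adjusted p = 0.045). The cause was not tested.

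Counts of called genes were 102 (GM-CSF with IL-10 present), 42 (GM-CSF, Irf5-/-), 6 (IL-10), 6 (IL-10 with GM-CSF), 4 (Irf5-/- against WT, untreated) and 4 (with GM-CSF), and in the same order 168, 78, 30, 21, 23 and 8 with DESeq2. With limma-voom the second was 20, without the filter the fifth was 9, and with the Y-linked covariate the fourth was 3. With only the groups compared, the third to sixth were 44, 0, 562 and 2.

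With each library left out in turn, these counts ranged over 44 to 100, 11 to 41, 0 to 7, 0 to 6, 1 to 8 and 2 to 5. The lowest of the first 2 came without WT IL-10 replicate 1 and Irf5-/- GM-CSF replicate 1. Log2 values of lost calls ranged over 0.82 to 0.95 (Spp1, Irf5-/-) and 2.41 to 2.93 (Kif1a, IL-10 present). Signs turned for Car4 and Spp1 between untreated Csf2ra-/- and WT cells (-0.1 to 0.15 and -0.06 to 0.34), for Car4 between untreated Irf5-/- and WT cells (-0.14 to 0.11), for Plet1 between them with GM-CSF (-0.94 to 0.2), and for the IL-10 effect on Spp1 beside GM-CSF (-0.01 to 0.28). Kif1a moved in WT cells (2.35 to 3.5, highest without untreated replicate 1) and between untreated Csf2ra-/- and WT cells (0.92 to 3.48). Depth limits Kif1a, with at most 54 reads in a library, and Plet1 wherever GM-CSF or its receptor was absent.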
